A study of Mus musculus with 8 samples.

Results

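The genes described here encode the enzymes and receptors of prostaglandin E2 and leukotriene signaling. They are the 8 genes Pla2g4a, Ptgs1, Ptgs2, Ptges, Ptger2, Ptger4, Alox5 and Alox5ap, chosen by name for their place in the pathway. Earlier results of these data were known when they were chosen. On the arrays, 7 of the 8 had a probe set that carries only their symbol, with 11 such probe sets in all, out of 18193 genes with such a probe set. Ptgs1 was not analysed here. Gene expression was measured on 8 Affymetrix arrays of RAW 264.7 cells, an established mouse macrophage line, with 2 arrays in each of 4 groups. Menthol, the cooling compound of mint, was given for 1 h, and LPS, the bacterial lipopolysaccharide, at 100 ng/ml for 6 h. The groups were menthol followed by LPS (LPS+M), the same LPS treatment after control treatment (LPS), menthol, also labelled 1 h (M), and control (C). All groups share the cell line, a transformed line, and the labels give neither the dose of menthol nor a harvest time for M and C. Comparisons of LPS+M or LPS with M or C, and differences between such comparisons, may therefore also include a difference in time. Arrays of a group are labelled as biological replicates, but separate cultures are not stated, so p-values cover only the spread seen between these arrays, and that spread may be technical.

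Prostaglandin E2 is made when cytosolic phospholipase A2 releases arachidonic acid from membranes, cyclooxygenases turn it into prostaglandin H2, and terminal synthases isomerise that product. The secreted lipid acts through G protein-coupled receptors, of which EP2 and EP4 raise cyclic AMP. In a parallel branch, 5-lipoxygenase and its membrane partner, the 5-lipoxygenase activating protein, turn arachidonic acid into leukotrienes. Macrophages are known to make both kinds of lipid and to raise cyclooxygenase-2 after bacterial stimuli.

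Values are deposited log2 signals, in which a difference of 1 is a doubling, and the signal of different probe sets cannot be compared. Each gene was read from its probe set with the highest mean, the main probe set. A gene was tested where that mean lay above 4.84, the mean of all probe sets, which held for 8908 genes and for 6 of the 8 genes described here. Changes were fitted with limma over all 8 arrays, and a gene was called upregulated or downregulated where the fold change was 1.5 or more and p, adjusted by Benjamini-Hochberg over all tested genes, was under 0.05. Each ± gives a standard error on the log2 scale. Array medians were 2.99 to 3.04, and all 8 macrophage markers looked at, such as Csf1r and Cd68, were above the filter (9.62 to 15.6). Of 15 marker genes of B cells, T cells, fibroblasts, epithelium and mast cells, 14 had a probe set, and none of these was above the filter (1.68 to 4.04). Among LPS response genes, Acod1 averaged 10.7 in LPS+M, 11.1 in LPS, 3.74 in M and 4.43 in C. Tnf averaged 10.6 in LPS+M, 10.9 in LPS, 8.37 in M and 8.42 in C. Il1b, with a mean under the filter, averaged 3.18 in LPS+M and 5.66 in LPS, against 3.09 in M and in C. Nos2 and Il6 were also under the filter. Nos2 averaged 1.91 in LPS and in C, with no rise, and Il6 averaged 2.52 in LPS and 2.30 in C. In RNA from whole cultures, fewer expressing cells and less RNA per cell cannot be told apart.

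The promoter windows of the 3 genes with the largest changes, Ptgs2, Ptger2 and Ptger4, are shown because Ptgs2 and Ptger4 were upregulated by LPS while Ptger2 was upregulated by menthol. Each is the 250 bases before the start annotated by RefSeq (GRCm38.p6), 5′ to 3′ on the strand of the gene. The stretches are chr1:150099781-150100030 (plus strand) for Ptgs2, chr14:44987861-44988110 (plus strand) for Ptger2 and chr15:5244188-5244437 (minus strand) for Ptger4. Capitals mark matches to the motifs searched.
Ptgs2: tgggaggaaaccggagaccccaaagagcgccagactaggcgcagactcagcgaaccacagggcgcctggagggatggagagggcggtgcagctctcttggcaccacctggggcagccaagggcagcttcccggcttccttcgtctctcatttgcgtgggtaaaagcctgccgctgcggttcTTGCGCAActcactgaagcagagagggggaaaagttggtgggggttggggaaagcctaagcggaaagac
Ptger2: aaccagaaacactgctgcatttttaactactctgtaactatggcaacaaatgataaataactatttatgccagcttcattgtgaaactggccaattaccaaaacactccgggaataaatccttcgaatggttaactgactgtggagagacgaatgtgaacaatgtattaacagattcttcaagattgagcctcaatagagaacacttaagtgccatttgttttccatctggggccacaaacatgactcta
Ptger4: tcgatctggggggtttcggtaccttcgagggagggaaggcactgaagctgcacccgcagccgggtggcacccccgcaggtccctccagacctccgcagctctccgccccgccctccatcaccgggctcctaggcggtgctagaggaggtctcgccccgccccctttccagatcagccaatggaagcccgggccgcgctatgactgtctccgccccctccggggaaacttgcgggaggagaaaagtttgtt

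Windows of 300 bases, from 250 before to 50 after the start, were searched on both strands for 6 motifs and were available for 7 of the 8 genes. The motifs were the TATA box TATAAA, the E-box CACGTG, the short CRE TGACG, the full CRE TGACGTCA, the C/EBP motif TTGCNNAA and an NF-κB motif. Ptgs2 held the C/EBP motif at positions -69 to -62 from the start, and among all 32851 windows 10.8% held this motif. Just after the annotated start, at chr1:150100038-150100058, it also held a short CRE on the opposite strand that shares bases with an E-box, shown here as the stretch around both motifs.
Ptgs2, after the start: ccactaCGTCACGTGgagtcc
The short CRE was in 20.8% and the E-box in 7.15% of all windows. Ptger2 held a C/EBP motif 40 to 47 bases after the start, and the Ptger4 window held none of the 6 motifs. In the other windows, Alox5 had a match to the NF-κB motif (20.7% of all windows), and a window at another start of Pla2g4a had a TATA box (13.6%). The full CRE, in 1.79% of all windows, was in no window of these genes. Such matches describe letters and not binding.

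At the main probe sets, the largest changes with menthol were in the genes of the PGE2 receptors, which went in opposite directions after LPS, whereas the largest change with LPS was in the cyclooxygenase gene Ptgs2. Of the 4 tested genes of synthesis, which are those of 3 enzymes and of the 5-lipoxygenase activating protein, none was called in M compared to C or in LPS+M compared to LPS, and 1 rose and 1 fell in LPS compared to C. Of the 2 receptor genes, 1 rose in M compared to C, 1 rose in LPS compared to C, and 1 rose and 1 fell in LPS+M compared to LPS. Over all tested genes, 4.55% were called in M compared to C, 6.13% in LPS compared to C and 6.71% in LPS+M compared to LPS. The median log2 fold change of the 6 tested genes was 0.04 in M compared to C, -0.08 in LPS compared to C and 0.01 in LPS+M compared to LPS, beside 0.02, -0.03 and 0.03 over all tested genes. The plot of signals by array shows each gene in the 4 groups.

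**Figure D1:**
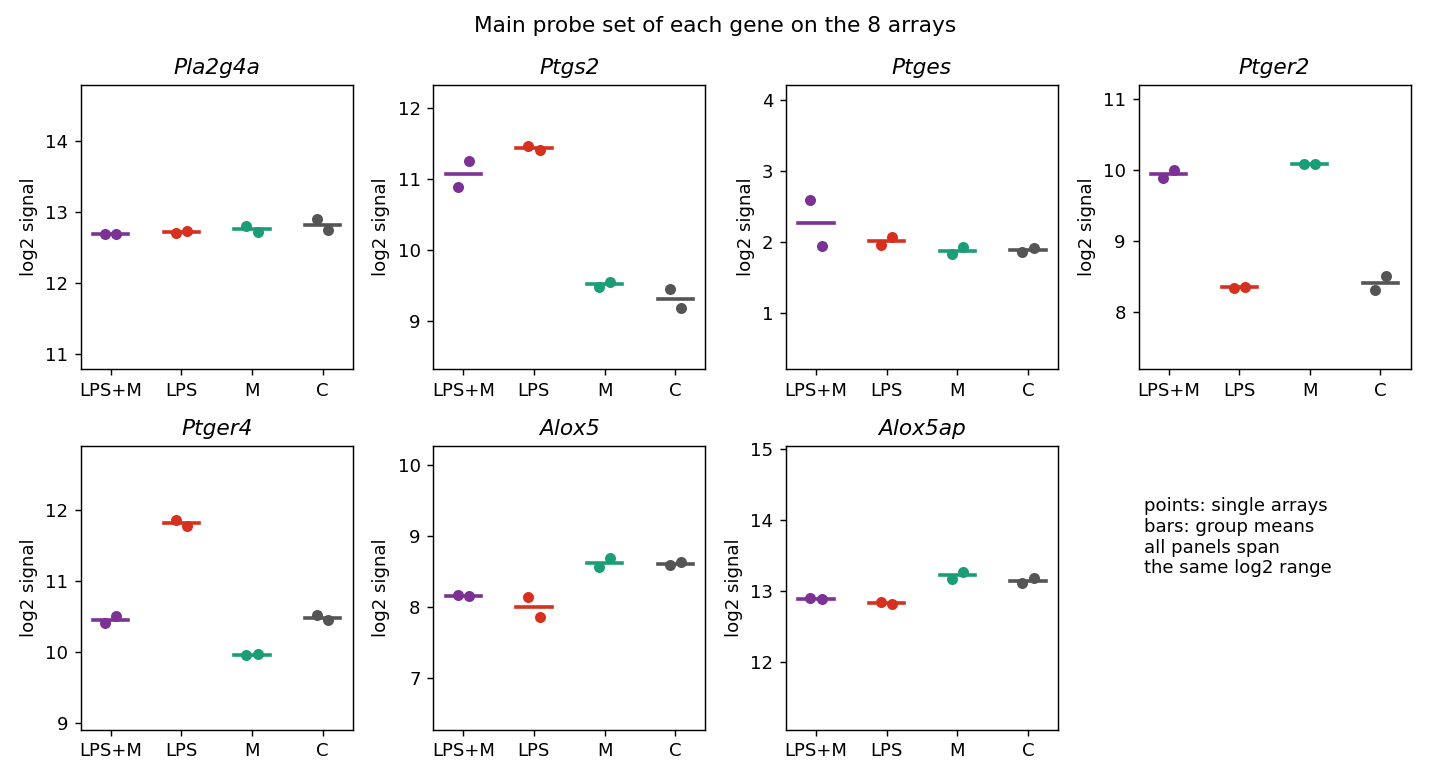
Log2 signal (y axis) of the main probe set of 7 genes on each of the 8 arrays, by treatment group (x axis), with points for single arrays and bars for group means. Ptger2 lies near 10 on the LPS+M and M arrays and between 8.30 and 8.50 on the LPS and C arrays, and Ptger4 is highest on the LPS arrays.

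Ptger2, which encodes the EP2 receptor, was upregulated by menthol both without and with LPS. Ptger2 had no second probe set carrying only its symbol, so its changes could not be compared between probe sets. Its signal was 10.08 and 10.09 on the M arrays, against 8.30 and 8.50 on the C arrays. After LPS it was 9.88 and 9.99 on the LPS+M arrays and 8.33 and 8.35 on the LPS arrays. All 4 arrays with menthol were thus higher than all 4 arrays without it. Ptger2 rose 3.21-fold in M compared to C (log2 fold change 1.68 ± 0.08, adjusted p = 7.71e-05), where 3.01% of all tested genes were called higher. After LPS, the rise with menthol was 3.02-fold (1.60 ± 0.08, adjusted p = 3.63e-05), where 4.22% were called higher. The differences with LPS were small. The log2 fold change was -0.06 in LPS compared to C (95% confidence interval -0.24 to 0.13, adjusted p = 0.655). Between LPS+M and M it was -0.15 (-0.33 to 0.04, adjusted p = 0.277). In the order of levels, M came first, then LPS+M, C and LPS, and only the step between LPS+M and C was called. The interaction, which is the LPS change with menthol minus the LPS change without it, was -0.09 (-0.35 to 0.17, adjusted p = 0.878).

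Ptger4, which encodes the EP4 receptor, was upregulated by LPS alone, and its signal in LPS+M was close to that in C. The signals were 10.40 and 10.50 on the LPS+M arrays, 11.85 and 11.78 on the LPS arrays, 9.96 and 9.97 on the M arrays, and 10.52 and 10.46 on the C arrays. The LPS arrays were above all others and the M arrays below all others, while LPS+M and C overlapped. Ptger4 rose 2.51-fold in LPS compared to C (1.33 ± 0.07, adjusted p = 1.24e-05), where 3.17% of all tested genes were called higher. It was 2.57-fold lower in LPS+M compared to LPS (-1.36 ± 0.07, adjusted p = 3.48e-05), where 2.49% were called lower. The log2 fold change in LPS+M compared to C was -0.03 (-0.18 to 0.12, adjusted p = 0.739). In M compared to C it was -0.52 ± 0.07 (adjusted p = 0.00204), a 1.44-fold lower signal that is under the fold minimum, although averaging its probe sets gave -0.63, which was called. With menthol present, LPS compared to no LPS gave 0.49 ± 0.07 (LPS+M compared to M, adjusted p = 0.00245), or 1.40-fold, also under the minimum.

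For Ptger4 the LPS change was smaller with menthol than without it, with an interaction of -0.84 ± 0.09 (adjusted p = 0.0182), a comparison in which 0.236% of all tested genes were called, 0.0337% higher and 0.202% lower. This call depended on the set of genes and on single arrays. The adjusted p was 0.0558 with no filter and 0.0694 with every probe set tested by itself. It was also over 0.05 without the first C array (-0.87), the second C array (-0.81), the first LPS array (-0.80), the first M array (-0.84), the second M array (-0.83) or the first LPS+M array (-0.79). The value itself stayed between -0.91 and -0.79 over all alternatives tried, leaving aside the second probe set by itself. A second probe set of Ptger4, with lower signals, read 4.63 and 4.72 in LPS+M, 6.16 and 6.62 in LPS, 4.32 and 4.06 in M, and 5.00 and 4.87 in C. Its groups had the same order as those of the main probe set. Fitted with every probe set and no filter, it had -1.72 ± 0.17 in LPS+M compared to LPS (adjusted p = 0.00573) and 1.45 ± 0.17 in LPS compared to C (adjusted p = 0.0101). Its interaction in that limma fit was -0.97 ± 0.24 (adjusted p = 0.428) and was not called.

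Ptgs2, which encodes the inducible cyclooxygenase-2, was upregulated by LPS with and without menthol. The main probe set read 10.89 and 11.26 on the LPS+M arrays, 11.47 and 11.42 on the LPS arrays, 9.48 and 9.55 on the M arrays, and 9.45 and 9.18 on the C arrays. Every array with LPS was higher than every array without it. In LPS compared to C the gene rose 4.37-fold (2.13 ± 0.13, adjusted p = 3.43e-05). With menthol present, LPS+M compared to M, it rose 2.94-fold (1.56 ± 0.13, adjusted p = 0.000216), where 4.16% of all tested genes were called, 2.39% higher and 1.77% lower. The methods' t-test did not call the second of these changes. Menthol made no called difference at this probe set. The log2 fold change was -0.37 ± 0.13 in LPS+M compared to LPS (adjusted p = 0.0661) and 0.20 ± 0.13 in M compared to C (adjusted p = 0.313). Both LPS+M arrays lay below both LPS arrays, and without the first LPS+M array the difference was -0.19, with -0.55 without the second.

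The second probe set of Ptgs2 differed from the main one in the sign of the menthol difference after LPS. It lay under the filter, with a mean of 4.42, and was therefore looked at in the fit of every probe set without a filter, a choice made after the data were seen. Its signals were 5.21 and 5.27 in LPS+M, 4.88 and 4.76 in LPS, 4.28 and 4.23 in M, and 3.36 and 3.34 in C, and those in C were near background, so no fold is given against C. The 4 groups did not overlap, with menthol groups above their counterparts without menthol. The log2 difference was 0.91 ± 0.05 in M compared to C (adjusted p = 0.00196) and 1.47 ± 0.05 in LPS compared to C (adjusted p = 0.00028), and both were called. In LPS+M compared to LPS it was 0.42 ± 0.05 (adjusted p = 0.00865), which is under the fold minimum and opposite in sign to the main probe set. With the mean of both probe sets, LPS+M compared to LPS came to 0.02 for Ptgs2. The upregulation by LPS was thus read by both probe sets, and the direction with menthol after LPS depended on the probe set.

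**Figure D2:**
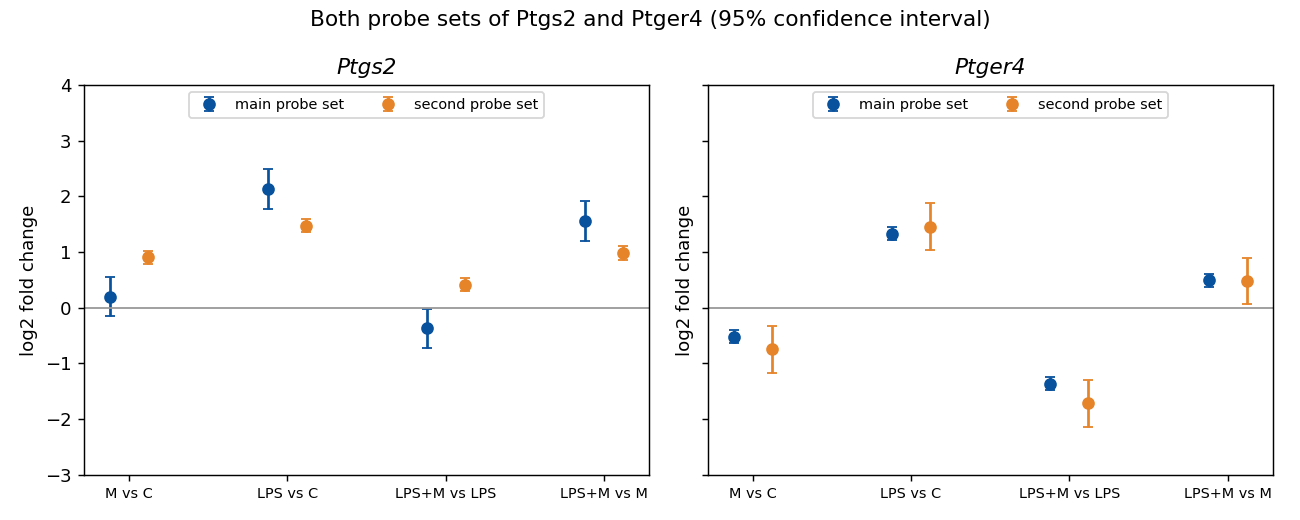
Log2 fold change (y axis) of the main and the second probe set of Ptgs2 and Ptger4 in 4 comparisons (x axis), with 95% confidence intervals from the fit of every probe set. For Ptgs2 the probe sets lie on opposite sides of 0 in LPS+M compared to LPS (-0.37 and 0.42), and for Ptger4 both lie below 0 (-1.36 and -1.72).

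Upstream of the cyclooxygenases, Pla2g4a, which encodes cytosolic phospholipase A2, had a high and nearly constant signal. It was 12.68 and 12.69 on the LPS+M arrays, 12.70 and 12.73 on the LPS arrays, 12.79 and 12.71 on the M arrays, and 12.89 and 12.73 on the C arrays. The LPS, M and C arrays overlapped, and the LPS+M arrays lay just below them. The log2 fold change was -0.10 in LPS compared to C (-0.26 to 0.07), -0.06 in M compared to C (-0.23 to 0.11) and -0.03 in LPS+M compared to LPS (-0.20 to 0.13). Given only the spread between these arrays, these intervals exclude a 1.5-fold change in each of the 3 comparisons. Downstream, Ptges, which encodes the inducible microsomal prostaglandin E synthase, was under the filter on all 3 of its probe sets. On 7 of the arrays its main probe set read 1.84 to 2.07, among them the second LPS+M array with 1.95, and the first LPS+M array was above them. Without a filter, the log2 fold change of Ptges was 0.12 ± 0.20 in LPS compared to C (adjusted p = 0.991). The interval of this change ran from -0.38 to 0.62, and a fall from signals this low could not have been measured.

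The signals of both leukotriene genes were lower on the arrays with LPS. Alox5, which encodes 5-lipoxygenase, read 8.17 and 8.15 on the LPS+M arrays, 8.14 and 7.86 on the LPS arrays, 8.56 and 8.69 on the M arrays, and 8.59 and 8.63 on the C arrays. All arrays with LPS were below all arrays without it. Alox5 was 1.53-fold lower in LPS compared to C (-0.61 ± 0.10, adjusted p = 0.00359), where 2.96% of all tested genes were called lower. The methods' t-test did not make this call, and it was lost when the second LPS array was left out (-0.47). In LPS+M compared to M the log2 fold change was -0.46 ± 0.10 (adjusted p = 0.0175), under the fold minimum. Menthol made no called difference to Alox5, with 0.01 in M compared to C (-0.21 to 0.23) and 0.16 in LPS+M compared to LPS (-0.06 to 0.38).

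Alox5ap, which encodes the 5-lipoxygenase activating protein, read 12.89 and 12.88 on the LPS+M arrays, 12.84 and 12.82 on the LPS arrays, 13.17 and 13.27 on the M arrays, and 13.11 and 13.18 on the C arrays. Its arrays split the same way, with all those treated with LPS below all others. The difference was -0.31 ± 0.06 in LPS compared to C (adjusted p = 0.0109). Between LPS+M and M it was -0.33 ± 0.06 (adjusted p = 0.0124). Both are under the fold minimum, at 1.24-fold and 1.26-fold lower. For menthol the values were 0.07 in M compared to C (-0.07 to 0.22) and 0.06 in LPS+M compared to LPS (-0.09 to 0.20).

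**Figure D3:**
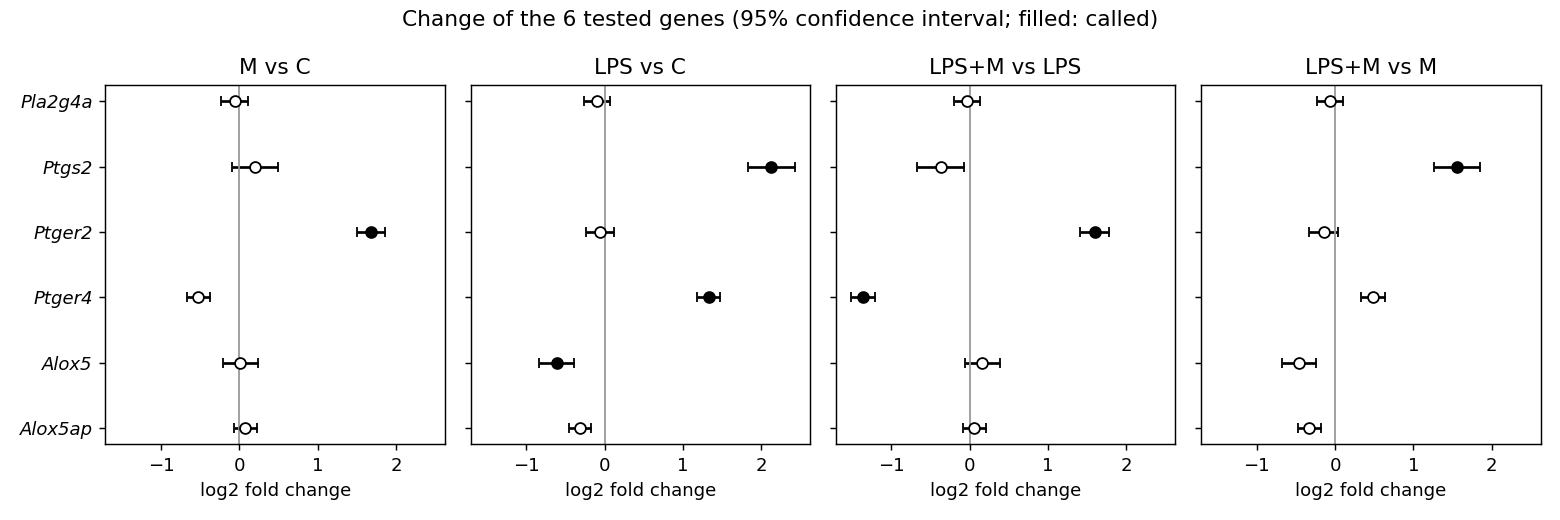
Log2 fold change (x axis) of the 6 tested genes (y axis) in 4 comparisons, with 95% confidence intervals, where filled symbols were called. In M compared to C, Ptger2 lies at 1.68, and in LPS+M compared to LPS Ptger2 lies at 1.60 while Ptger4 lies at -1.36.

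Set directly against each other, LPS and M differed in 4 of the 6 tested genes, where 11.3% of all tested genes were called, 4.59% higher and 6.7% lower. In LPS compared to M, Ptgs2 rose 3.80-fold and Ptger4 rose 3.61-fold, while Ptger2 was 3.34-fold lower and Alox5 1.54-fold lower, and all had an adjusted p of 0.00174 or less by limma. In the fit of every probe set, the second probe set of Ptgs2 gave 0.57 ± 0.05 here, under the fold minimum. That of Ptger4 gave 2.20 ± 0.17 and was called. The Alox5 call was lost without the second LPS array (-0.48), without the second M array (-0.56) and after another quantile normalization (-0.57). The methods' t-test did not make this call either. In LPS+M compared to C, where 9.83% of all tested genes were called, 5.53% higher and 4.3% lower, Ptgs2 (3.38-fold) and Ptger2 (2.90-fold) rose together.

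The other genes of the pathway were counted in 6 lists, and no test compared the lists with each other or with all genes. Of 22 genes of phospholipases and arachidonate handling, 13 were tested, and in LPS compared to C none rose and 2 fell. In this comparison 3.17% of all tested genes were called higher and 2.96% lower. The 2 genes that fell were both near the fold minimum. They were Daglb, which encodes a diacylglycerol lipase (-0.60 ± 0.07), and Pla2g15, which encodes a lysosomal phospholipase (-0.62 ± 0.11). Both calls sat at the fold minimum and were lost without single arrays: Daglb without the first LPS (-0.55) or second C array (-0.56), and Pla2g15 without the first LPS (-0.46) or first C array (-0.57). The mean of its probe sets gave -0.31 for Pla2g15, not called, and the methods' t-test did not call it. Another quantile normalization took Daglb to -0.57, not called. In M compared to C and in LPS+M compared to LPS none of the 13 was called, beside 4.55% and 6.71% of all tested genes. Of 14 genes of other prostanoid synthesis, transport and breakdown, 7 were tested. Hpgds, which encodes the hematopoietic prostaglandin D synthase, was the 1 gene called in any of these 3 comparisons, at -0.76 ± 0.14 in LPS compared to C, and was not called without the second C array (-0.67).

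Of 8 other prostanoid receptor genes, only Ptgir, which encodes the prostacyclin receptor, was above the filter. It was not called, with 0.53 ± 0.07 in LPS compared to C (adjusted p = 0.00172), -0.27 ± 0.07 in LPS+M compared to LPS and -0.05 ± 0.07 in M compared to C. Among 18 other leukotriene and lipoxygenase genes, 6 were tested, and 1 was called. In LPS compared to C, 2.96% of all tested genes were called lower. Cysltr1, which encodes a receptor of cysteinyl leukotrienes, read 6.69 and 6.29 on the LPS arrays and 7.76 and 7.44 on the C arrays, and was 2.17-fold lower in LPS compared to C (-1.12 ± 0.17, adjusted p = 0.00301). In LPS+M it read 6.48 and 6.19, against 7.39 and 7.18 in M, a 1.93-fold lower signal (adjusted p = 0.00886 by limma). The methods' t-test did not call Cysltr1 in LPS compared to C.

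Of 25 genes of cyclic AMP signaling, the pathway below EP2 and EP4, 17 were tested, and 4 rose and none fell in M compared to C, where 3.01% of all tested genes were called higher and 1.54% lower. The median of the 17 genes was 0.11, beside 0.02 over all tested genes. Crem, which encodes a cyclic AMP-responsive transcription factor, read 9.87 and 10.02 in M and 8.60 and 8.57 in C, and rose 2.57-fold (1.36 ± 0.12, adjusted p = 0.000461). Nr4a2, an orphan nuclear receptor gene induced by cyclic AMP in many cells, read 7.51 and 7.44 in M and 6.21 and 6.04 in C, and rose 2.56-fold (1.36 ± 0.18, adjusted p = 0.00255). The phosphodiesterase genes Pde3b and Pde4b, whose products break down cyclic nucleotides, rose 3.15-fold and 1.81-fold.

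After LPS, menthol changed part of these cyclic AMP genes, and in LPS+M compared to LPS 3 of the 17 rose and 1 fell, where 4.22% of all tested genes were called higher and 2.49% lower. Crem read 8.85 and 9.14 in LPS+M and 7.67 and 7.91 in LPS, and rose 2.31-fold (1.21 ± 0.12, adjusted p = 0.000448). The change of Crem was 0.51, and not called, with the mean of its probe sets. Pde3b (0.83 ± 0.21) and the phosphodiesterase gene Pde7a (0.60 ± 0.07) rose, and Arrb1, which encodes a β-arrestin that binds active receptors, fell by 0.73 ± 0.11. The call of Pde3b was lost without the first LPS array (0.44), the first LPS+M array (0.75) or the second LPS+M array (0.91), and with no filter (adjusted p = 0.0915). The call of Pde3b was also lost in a limma fit of only the LPS+M and LPS arrays (adjusted p = 0.0747). That of Pde7a was lost without the first LPS array (0.53) or the first LPS+M array (0.55), or when its probe sets were averaged (0.29), and that of Arrb1 without the first LPS+M array (-0.58). The methods' t-test called neither Pde3b nor Arrb1 here, and another quantile normalization took Pde7a to 0.57, not called. Nr4a2 had 0.33 ± 0.18 (adjusted p = 0.214) and Pde4b -0.02 ± 0.08 (adjusted p = 0.911).

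In LPS compared to C, 1 of these 17 genes rose and 2 fell, where 3.17% of all tested genes were called higher and 2.96% lower. Pde4b read 7.94 and 7.74 in LPS and 6.43 and 6.48 in C, and rose 2.62-fold (1.39 ± 0.08, adjusted p = 3.47e-05). Crem was 1.74-fold lower (adjusted p = 0.0026 by limma), or -0.39 and not called with the mean of its probe sets. Pde3b was 1.70-fold lower (adjusted p = 0.0362 by limma), a call lost with no filter, without the first LPS array (-0.38), the first C array (-0.75) or the second C array (-0.78). Pde3b was also not called by limma with every probe set tested by itself (adjusted p = 0.0591) or with only the LPS and C arrays (adjusted p = 0.0977). The methods' t-test called neither Crem nor Pde3b in LPS compared to C. For Pde4b, as for Ptger4, the LPS change was smaller with menthol, at 0.52 ± 0.08 in LPS+M compared to M, and the interaction was -0.87 ± 0.12 (adjusted p = 0.0424). It was not called without either C array, either M array, the first LPS array or the first LPS+M array (-0.90 to -0.77), nor with no filter (adjusted p = 0.128).

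**Figure D4:**
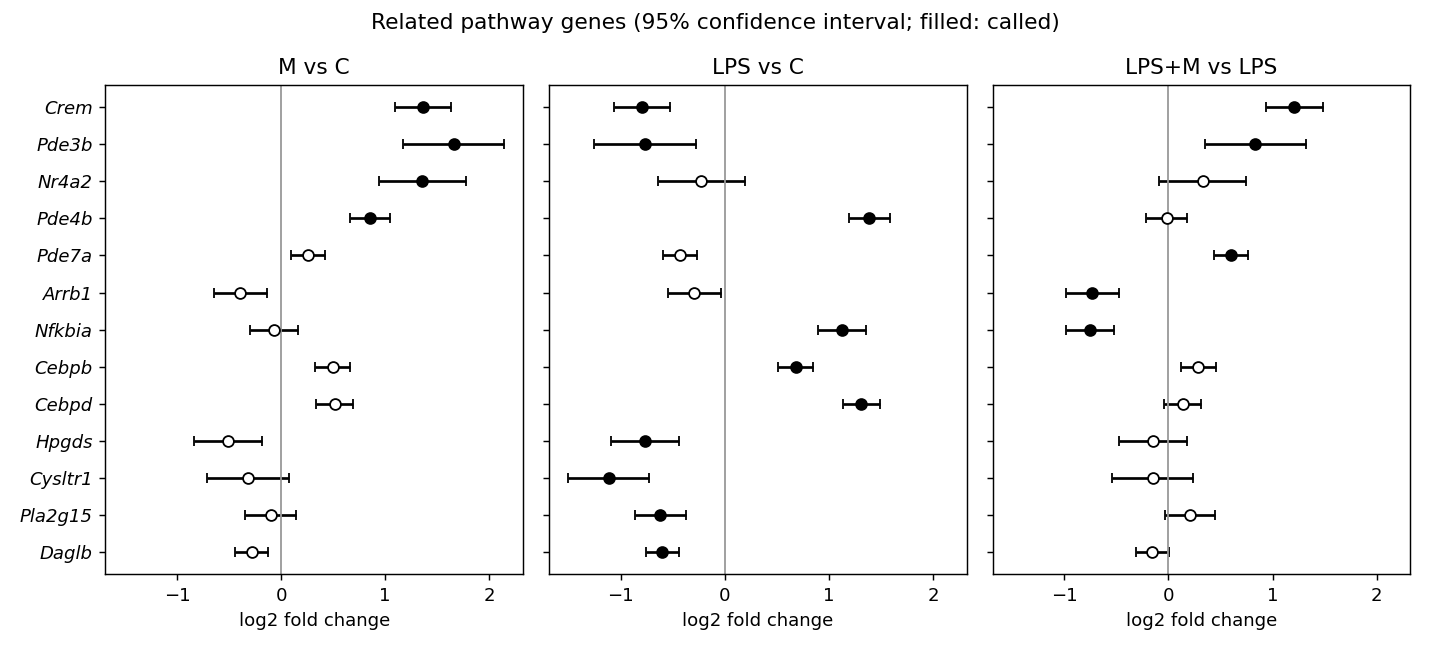
Log2 fold change (x axis) of 13 related genes (y axis) in 3 comparisons, with 95% confidence intervals, where filled symbols were called. Crem and Pde3b lie above 0 in M compared to C (1.36 and 1.66) and below 0 in LPS compared to C (-0.80 and -0.77).

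Of 13 genes known as transcription or mRNA stability factors of Ptgs2, 12 were tested, and 3 rose and none fell in LPS compared to C, where 3.17% of all tested genes were called higher. Cebpd and Cebpb, which encode C/EBP transcription factors, rose by 1.31 ± 0.08 and 0.68 ± 0.07, and Nfkbia, which encodes the NF-κB inhibitor IκBα, rose by 1.12 ± 0.10. In M compared to C none of the 12 was called, with 0.51 ± 0.08 for Cebpd and 0.50 ± 0.07 for Cebpb under the fold minimum. In LPS+M compared to LPS none rose and 1 fell, where 4.22% of all tested genes were called higher and 2.49% lower. Nfkbia read 13.52 and 13.84 in LPS+M and 14.40 and 14.46 in LPS and fell by 0.75 ± 0.10 (adjusted p = 0.00168 by limma), while Cebpb had 0.29 ± 0.07 and Cebpd 0.14 ± 0.08. The methods' t-test did not call Nfkbia here.

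Over the 8 arrays, other genes followed the called genes closely. The signal of Ptger2 correlated best with Ppard (r = 0.995), Tmx4 (r = 0.993) and Oga (r = 0.992), and that of Ptger4 with Fabp4 (r = 0.993), Tmem176b (r = 0.987) and Xylt2 (r = 0.984). For Ptgs2 the closest genes were Dram1 (r = 0.996), Slc31a2 (r = 0.994) and Rffl (r = 0.992), and for Alox5 they were 9930012K11Rik (r = 0.992), Zdhhc7 (r = 0.992) and Il18rap (r = 0.989). These are Pearson correlations over the same 8 arrays in 4 groups, picked as the highest of all tested genes, and are given as a description. Ppard, which encodes a lipid-activated nuclear receptor, had a log2 fold change of 0.71 in M compared to C and 0.71 in LPS+M compared to LPS. Fabp4, which encodes a fatty acid binding protein, had -0.60, 1.05 and -1.15 in M compared to C, LPS compared to C and LPS+M compared to LPS.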

How the data were processed

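RNA of RAW 264.7 cells was measured on 8 Affymetrix mouse arrays, 2 for each of 4 groups named by the sample labels. The authors deposited log2 signals made with R 2.6.1 and GCRMA (version 2.10.0), a method that removes background according to the GC content of probes, gives the arrays the same distribution and summarises each probe set. Compared signals are therefore relative to the other genes, and values of about 2 to 4 are near background. The log2 values were used as deposited, with limma 3.58.1 under R 4.3.3 (1 coefficient per group, 4 residual and 3.78 prior degrees of freedom). Of 45101 probe sets, 34945 carried 1 gene symbol in the platform annotation. Calls were tested on simulated data. Precision is limited by the number of arrays. Permuting 2 arrays against 2 exactly gives no two-sided p under 0.333. The genes, the lists and the tests were chosen with earlier results of these data known. The text names all members, up to 6 genes of each list called in M or LPS compared to C or in LPS+M compared to LPS and the 3 genes most correlated with each called member. Alternatives were other filters, probe set choices, normalizations, tests, fold minimums, a replicate block, and each array left out. Promoter sequences are those of RefSeq.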

Additional observations from a re-analysis of the deposited data

Results flagged for a closer look

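The LPS change of Ptger4 differed with menthol by a test of the difference itself, with an interaction of -0.84 on the log2 scale (0.49 in LPS+M compared to M and 1.33 in LPS compared to C, limma adjusted p = 0.0182). The same test gave -0.87 for Pde4b (0.52 in LPS+M compared to M and 1.39 in LPS compared to C, limma adjusted p = 0.0424). In this comparison 21 of 8908 genes were called. The comparison may also include a difference in time, as the labels give no harvest time for M and C. Neither call held with no filter (adjusted p = 0.0558 for Ptger4 and 0.128 for Pde4b), with every probe set tested by itself, with a fold minimum of 2, or without either C array, either M array, the first LPS array or the first LPS+M array.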

How the results depend on the processing

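Over the alternatives tried, none of the log2 fold changes of the 6 tested genes that was called in either setting changed sign, 18 lost and 9 gained a call, and 657 kept their side of the thresholds. Changes far from the thresholds are counted among those kept. The fold changes of genes with a single probe set could not move with the choice of probe set. The added fit of the second probe sets without a filter is not in these counts. In M compared to C, 2 of the genes were called instead of 1 with the mean of all probe sets, with every probe set tested by itself and with no fold minimum, the added gene being Ptger4, through its second probe set where each was tested by itself. In LPS+M compared to M, 0 were called with the methods' t-test and 4 with no fold minimum, and in LPS+M compared to C 4 were called with no fold minimum. For the interaction, 0 were called instead of 1 with no filter, with every probe set tested by itself and with a fold minimum of 2, and 0 to 1 when single arrays were left out. The second probe sets were examined after the data were seen.

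Counts over all tested genes were between 85 (fold minimum of 2) and 1934 (no fold minimum) in M compared to C, beside 405, between 184 and 1935 in LPS compared to C, beside 546, and between 136 and 2560 in LPS+M compared to LPS, beside 598. They were between 329 and 3450 in LPS compared to M, beside 1006, between 136 and 1268 in LPS+M compared to M, beside 371, and between 268 and 3085 in LPS+M compared to C, beside 876, under the same settings. The interaction had 1 with no filter and 45 with trended and robust eBayes, beside 21. Every probe set tested by itself gave 925 in LPS+M compared to LPS, and the mean of all probe sets gave 253 in M compared to C. The methods' t-test gave 254, 349 and 288 genes in M compared to C, LPS compared to C and LPS+M compared to LPS, and 0 after Benjamini-Hochberg adjustment. Over all tested genes, the replicate numbers of the labels showed little pairing of the arrays. The correlations between groups of the difference of the first and second array ranged from -0.12 to 0.19. Such correlations cannot settle pairing for single genes, and Cysltr1 was higher on the first array in each group. With the replicate number as a block, the counts of these genes called were 1 in M compared to C, 3 in LPS compared to C, 2 in LPS+M compared to LPS and 1 for the interaction, while the interaction of Pde4b was not called (adjusted p = 0.0663). Ptges was near background on all arrays, so that a fall could not have been measured.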
